A study of Mus musculus with 4 samples.

Results

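Mucins are large glycoproteins whose long stretches of serine and threonine carry dense O-linked sugars. The genes described here are 3 gel-forming mucins, Muc5ac, Muc5b and Muc2, which are secreted and link into the mesh of mucus, and 5 membrane mucins, Muc1, Muc4, Muc13, Muc15 and Muc20, which are anchored in the outward-facing membrane of epithelial cells. The 8 genes were chosen by name, as every non-control probe of the array whose gene name was one of them. They took up 10 of the 39429 different probes and stand for 8 of the 31044 genes measured.

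Muc5ac and Muc5b are the mucins of the airway surface: Muc5b is made by secretory cells of the unchallenged mouse airway and is needed to clear inhaled particles, and Muc5ac is scarce in the healthy mouse lung and abundant in allergic airway disease. There the type 2 cytokines interleukin 4 and interleukin 13 act on secretory cells of the airway, which fill with mucin granules and become goblet cells. Muc2 is the main mucin of the intestine. Membrane mucins form part of the coat over cilia and cell surfaces and can signal from their short inner tails.

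The series measured RNA from whole mouse lung on 1-colour Agilent arrays, with 1 array in each of 4 groups and RNA pooled from 4 samples on each. The groups were Pla2g3+/+, control; Pla2g3-/-, control; Pla2g3+/+, antigen challenged; and Pla2g3-/-, antigen challenged. Pla2g3 encodes group III phospholipase A2, a secreted enzyme that cuts fatty acids from phospholipids. The antigen was ovalbumin (OVA), injected into the abdomen on days 0 and 14 (10 µg, with 1.3 mg of alum as adjuvant) and inhaled as a 1% aerosol for 30 min on days 26, 27 and 28. Lungs were collected 48 h later. The labels give this protocol for all samples, so the treatment of the control mice, and the strain, age and sex, are not given in the sources here. The comparisons address the response of the lung to inhaled antigen and what loss of Pla2g3 does to it.

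The values came from 2 sources, the scanner files and the authors' value table, and a table column did not match the scanner array of its name: their log2 levels correlated across probes at 0.911 to 0.919, and those of different scanner arrays at 0.985 to 0.992. Each result is therefore given for both. A level is the signal of a probe divided by the 75th percentile of all non-control probes on its array, which was 1808 to 1986 intensity units in the scanner files and about 1.00 in the table. Of the non-control spots, 79.2% to 81.9% were above background in the scanner files and 79.8% to 82.1% in the table. The error given beside scanner values is Agilent's own error of the spot, set at 10% of the signal for bright spots. It covers the reading of the spot and not the spread between mice, and the table has no error. On the log2 scale it gives 0.20 for a difference of 2 bright spots.

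The signal of the Pla2g3 probe was higher on the arrays labelled knockout than on those labelled wild type, by 3.19 (control) and 3.90 (challenged) on the log2 scale in the scanner files and by 4.46 and 4.66 in the table. The sources here do not say which part of the gene was deleted, and a probe outside it checks nothing, so the arrays are called KO-labelled and WT-labelled throughout. The sources also differed in markers of lung cell types. The summed level of 10 alveolar markers was 316 to 336 in the table and 58.2 to 65.2 in the scanner files, where Rtkn2 and Cldn18 were each above background on 1 of 4 arrays. The sum of 6 basal cell markers was 2.75 to 3.46 in the table and 156 to 188 in the scanner files, and that of 10 markers of airway glands was 2.17 to 5.32 and 171 to 185. The gland sum was mostly Ltf, and without it the sums were 0.285 to 0.422 and 1.16 to 1.86. For 6 club cell markers the sums were 298 to 322 and 841 to 993, and for 6 endothelial markers 68.0 to 71.2 and 3.50 to 4.59. The part of these differences in the mucin levels was not tested.

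The 3 gel-forming mucins lie side by side on mouse chromosome 7. Their probes, in mm9 coordinates as the scanner files give them, were at chr7:148940000-148940059 for Muc2, chr7:149004793-149004852 for Muc5ac and chr7:149058931-149058990 for Muc5b, all on the plus strand. The starts of the Muc2 and Muc5ac probes were 64793 bases apart, and those of Muc5ac and Muc5b 54138. Muc4 and Muc20 also neighbour each other, on chromosome 16, and each had 2 probes. Those of Muc4 were at chr16:32782278-32782337 (probe 1) and chr16:32774896-32774955 (probe 2) on the plus strand. Those of Muc20 were at chr16:32786143-32786202 (probe 1) and chr16:32777512-32777571 (probe 2) on the minus strand, the second of them between both Muc4 probes. The remaining members had 1 probe each, at chr3:89034965-89035024 for Muc1, chr16:33819909-33819968 for Muc13 and chr2:110577682-110577741 for Muc15, all on the plus strand. Every probe was a single spot of 60 bases per array.

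The probe sequences are shown for the members whose values the results turn on, since they fix which piece of each transcript was read. Mucin genes hold long tandem repeats, which makes the position of a probe of interest. The Muc5ac probe has 1 reading frame without a stop codon across all 60 bases, and both Muc4 probes have more than 1.
Muc5ac: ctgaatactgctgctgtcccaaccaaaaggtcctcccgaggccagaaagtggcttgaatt
Muc4 probe 1: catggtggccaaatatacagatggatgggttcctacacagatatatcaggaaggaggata
Muc4 probe 2: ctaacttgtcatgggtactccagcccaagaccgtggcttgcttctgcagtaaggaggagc
The Muc5b probe and the second Muc20 probe have no open frame and hold the polyadenylation signal AATAAA, which precedes the end of most messenger RNAs. A stretch of 30 bases around it is given for each, with the signal in capitals. It was searched on both strands of every probe, and 12.6% of all 39429 probes hold it on their own strand (16.2% on either), against 2 of the 10 mucin probes.
Muc5b: tccctaagctgcAATAAAccctggcactgt
Muc20 probe 2: tctgagactgaactattatcAATAAAttct
The first 30 bases of the Muc13 probe are given because its 2-fold challenge difference appeared in the scanner files alone.
Muc13: cctcgtgtctgtctgacgtctggtcctctc

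Muc5ac, the gel-forming mucin of goblet cells, was higher in both challenged arrays than in both controls in either source, and it had the highest challenge difference of the members in the table. Its table level was 0.0727 (WT-labelled) and 0.0762 (KO-labelled) in the controls and 0.846 (WT-labelled) and 1.28 (KO-labelled) in the challenged arrays. The controls lay close together and far below both challenged arrays. The challenge difference was 3.54 on the log2 scale (11.6-fold) in the WT-labelled pair, the 68th highest of 25649 genes, and 4.07 (16.8-fold) in the KO-labelled pair, the 37th highest of 25071. Its scanner levels were 0.207 ± 0.021, 0.179 ± 0.018, 0.375 ± 0.037 and 0.397 ± 0.040 (spot error, same order). The step was smaller here, at 0.86 ± 0.20 (1.81-fold) in the WT-labelled pair and 1.15 ± 0.20 (2.22-fold) in the KO-labelled pair. The share of all genes with both challenged arrays above both controls was not counted, for Muc5ac as for the members below. In lung RNA from many cell types, more cells that make a mucin and more RNA per cell cannot be told apart.

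Muc5b, the mucin of the resting airway surface, was also higher after challenge in the table, from a control level that was already above the array's 75th percentile. Its table level was 5.35 and 6.52 in the WT- and KO-labelled controls and 16.9 and 18.7 in the challenged arrays. Both challenged arrays lay above both controls, by 1.66 (3.17-fold) in the WT-labelled pair and 1.52 (2.86-fold) in the KO-labelled pair on the log2 scale. The scanner level of Muc5b was 63.3 ± 6.3, 73.3 ± 7.3, 78.0 ± 7.8 and 104 ± 10 in the same order. The order of the arrays was the same, but the KO-labelled control and the WT-labelled challenged array differed by less than their spot errors. The challenge differences were 0.30 ± 0.20 and 0.50 ± 0.20 (1.23- and 1.42-fold) and stayed under 2-fold. The mean level of Muc5b over the arrays was 7.64-fold higher in the scanner files, relative to the table, whereas that of Muc5ac differed by -0.03 on the log2 scale. These levels were set across sources that were normalised separately.

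Muc2, the gel-forming mucin of the intestine, lay at the edge of detection. In the table it was 0.00321 in the WT-labelled control, which was above background, and 0.00185, 0.00204 and 0.00375 on the KO-labelled control, WT-labelled challenged and KO-labelled challenged arrays, which were not. The threshold is set on each array, at 0.00291 on the first and 0.00380 on the last of these. Among the scanner arrays it was above background on the WT-labelled challenged one (0.00566 ± 0.00115) and not on the others (0.00321, 0.00281 and 0.00468 for the WT-labelled control, KO-labelled control and KO-labelled challenged). The array on which Muc2 was detected was therefore a control in one source and a challenged array in the other. In the WT-labelled pair the scanner signal was 1.77-fold higher after challenge (0.82 ± 0.60 on the log2 scale), and the table signal 1.58-fold lower. The dimmer array was at background in both cases, so neither fold is a bound.

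**Figure D1:**
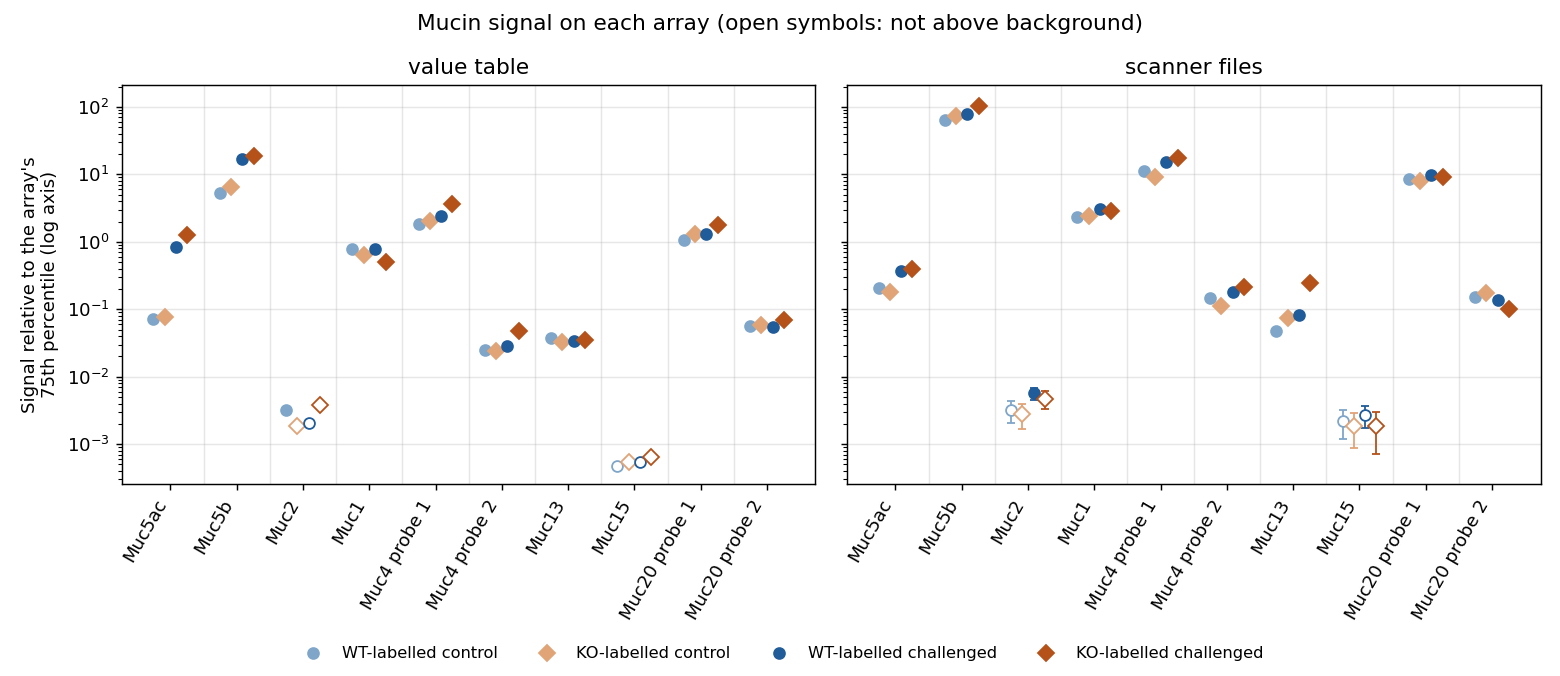
Level of each mucin probe on each of the 4 arrays, as signal relative to the array's 75th percentile on a log axis, in the value table (left) and the scanner files (right). Circles are WT-labelled and diamonds KO-labelled arrays, pale for control and dark for challenged, open symbols are not above background, and bars on the right are the spot error. Muc5ac lies at 0.0727 and 0.0762 in the controls and at 0.846 and 1.28 in the challenged columns of the table, and Muc15 is open on all arrays.

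Among the membrane mucins, Muc4, a large surface mucin of airway epithelium, was higher in both challenged arrays than in both controls, in both sources and by both of its probes. By probe 1 its table level was 1.86 and 2.02 in the WT- and KO-labelled controls and 2.43 and 3.64 in the challenged arrays. The KO-labelled challenged array was the highest, and the challenge difference was 0.38 (1.30-fold) for the WT label and 0.85 (1.80-fold) for the KO label. The scanner levels were 11.2 ± 1.1, 9.13 ± 0.91, 15.3 ± 1.5 and 17.4 ± 1.7, with differences of 0.45 ± 0.20 and 0.93 ± 0.20. Probe 2, which reads another part of the Muc4 transcript, gave 0.18 and 0.97 in the table and 0.29 ± 0.20 and 0.94 ± 0.20 in the scanner files. Muc4 thus had a larger difference in the KO-labelled than in the WT-labelled pair by each probe in each source, and none of these differences reached 2-fold. The levels of the 2 probes are not set against each other, since probes differ in how strongly they bind.

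Muc20, a membrane mucin known from kidney and from other epithelia, differed little by its first probe. In the table probe 1 gave 1.06 and 1.32 in the WT- and KO-labelled controls and 1.31 and 1.77 in the challenged arrays, so that the KO-labelled control and the WT-labelled challenged array lay at nearly the same level. The challenge differences were 0.30 and 0.43. The same probe gave scanner levels of 8.41 ± 0.84, 8.02 ± 0.80, 9.67 ± 0.97 and 9.29 ± 0.93, with differences of 0.20 ± 0.20 and 0.21 ± 0.20, about the size of the spot error. The second Muc20 probe, which holds the polyadenylation signal, did not follow the first. Its scanner levels were 0.153 ± 0.015, 0.171 ± 0.017, 0.139 ± 0.014 and 0.0993 ± 0.0100, which was lower after challenge by a log2 difference of -0.14 ± 0.20 for the WT label and -0.79 ± 0.20 for the KO label. In the table it differed by -0.05 and 0.25.

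Muc1, a membrane mucin on most glandular epithelia, was the member closest to no challenge difference in the WT-labelled pair of the table. Its table level was 0.780, 0.635, 0.785 and 0.497 (WT-labelled control, KO-labelled control, WT-labelled challenged, KO-labelled challenged). Both KO-labelled arrays lay below both WT-labelled ones, by -0.30 in the controls and -0.66 after challenge on the log2 scale. Scanner levels of Muc1 were 2.36 ± 0.24, 2.39 ± 0.24, 3.04 ± 0.30 and 2.83 ± 0.28. There the KO-labelled arrays differed from the WT-labelled ones by 0.02 ± 0.20 and -0.11 ± 0.20, and the arrays separated by treatment instead, with challenge differences of 0.37 ± 0.20 and 0.24 ± 0.20.

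Muc13, a membrane mucin best known from the gut lining, was flat in the table and had the highest challenge difference of the members above background on both arrays of the KO-labelled pair in the scanner files. Its table level was 0.0378, 0.0322, 0.0337 and 0.0349 over the 4 arrays in the order used above. All 4 values lay within a narrow band, with challenge differences of -0.17 and 0.12. The scanner levels of Muc13 were 0.0469 ± 0.0048, 0.0745 ± 0.0075, 0.0823 ± 0.0083 and 0.246 ± 0.025. The KO-labelled challenged array stood above the other 3, the challenge difference was 0.81 ± 0.21 (1.76-fold) for the WT label and 1.72 ± 0.20 (3.30-fold) for the KO label, and the challenged arrays differed by label by 1.58 ± 0.20 (2.99-fold). Markers of other tissues moved on the same arrays. Of 6 endothelial markers 4 were at least 2-fold higher in the KO-labelled challenged scanner array than in its control (median 1.40), and none in the WT-labelled pair. Of 9 gland markers above background 3 were, with Dcpp1 at 3.91 and Dcpp3 at 3.38, and of 8 leukocyte markers 2 were lower, with the T cell gene Cd8a at -3.73. In the WT-labelled pair 2 gland markers were higher and 2 leukocyte markers lower. Over all genes 8.72% were called in either direction in the KO-labelled scanner pair, and 4.41% in the WT-labelled one. Dcpp1 and Dcpp3 were highest on the KO-labelled challenged array, as Muc13 was. For the 4 endothelial markers the KO-labelled control was instead the lowest of the 4 arrays, and for Cd8a it was the highest (1.17). The part of these markers in the Muc13 and Muc5ac values was not tested.

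Muc15, a membrane mucin found in milk fat globules and placenta, was not above background on any array of either source. Its table level was at most 0.000639 and its scanner level at most 0.00268.

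**Figure D2:**
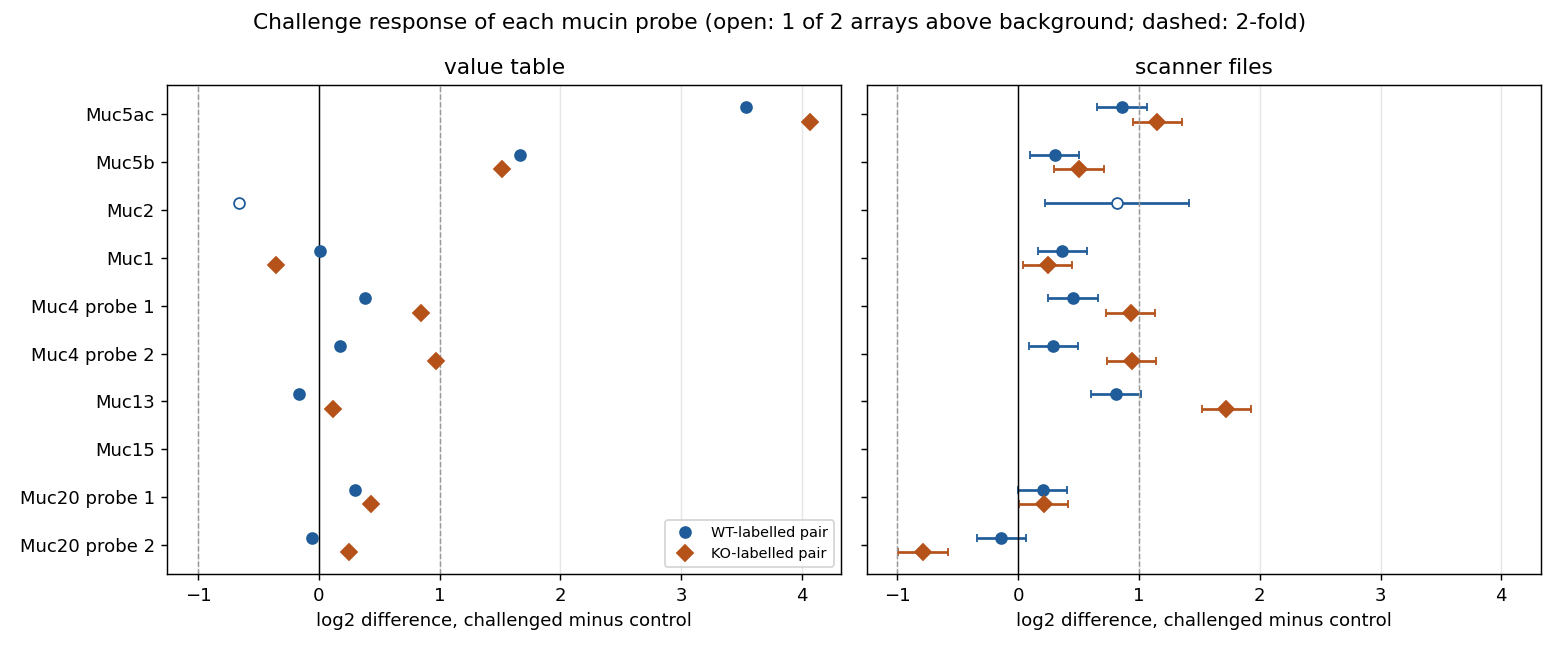
Challenged minus control, as a log2 difference, for each mucin probe in the WT-labelled pair (circles) and the KO-labelled pair (diamonds), in the value table (left) and the scanner files (right, with the spot error of the difference as bars). Open symbols had 1 of 2 arrays above background, pairs with none are left out, and dashed lines mark 2-fold. Muc5ac lies at 3.54 and 4.07 in the table and at 0.86 and 1.15 in the scanner files, and Muc13 lies near 0 in the table and at 1.72 in the KO-labelled scanner pair.

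Counted at 2-fold or more, with no test since each group has 1 array, 2 of the 7 members above background were higher after challenge in the WT-labelled pair of the table, against 3.45% of all genes called in either direction. These were Muc5ac and Muc5b. In the KO-labelled pair the same genes were called, 2 of 6, against 4.62%. Of the members above background in the scanner files, 0 of 7 were called in the WT-labelled pair, against 4.41% of all genes, and 2 of 6, Muc5ac and Muc13, in the KO-labelled pair, against 8.72%. No member was 2-fold lower after challenge in either source. The median challenge difference of the members above background was 0.30 and 0.64 in the table (WT- and KO-labelled pair) and 0.45 and 0.72 in the scanner files. Over all genes above background the same medians were 0.01 and 0.02, and -0.03 and -0.06. The pairs share no array within a source.

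Averaged over both genotype labels in an additive limma fit, the challenge effect on Muc5ac in the table was 3.81 (SE 0.18, 14.0-fold), the 8th highest of 26033 genes. That on Muc5b was 1.59 (SE 0.08, 3.01-fold), the 272nd highest. Muc4 followed with 0.62 (SE 0.16) and Muc20 with 0.36 (SE 0.08). The effect was -0.02 (SE 0.11) on Muc13, -0.17 (SE 0.13) on Muc1 and 0.18 (SE 0.53) on Muc2, which lay near background. None of them passed: with 1 residual degree of freedom per gene, the limma p adjusted by Benjamini-Hochberg over all genes was 0.553 for Muc5ac and Muc5b and 0.565 for Muc4 and Muc20, and 0 genes (0%) were called in the table, with 2292 at an unadjusted p under 0.05. When the spread was instead allowed to vary with the level of a gene (limma with a variance trend), 111 of 26033 table genes (0.426%) passed, and Muc5ac and Muc5b were among them with an adjusted limma p of 0.00288 each. Under that fit Muc4 had 0.145 and Muc20 0.154.

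The averaged challenge effect in the scanner files was 1.27 (SE 0.30, 2.41-fold) for Muc13, 1.00 (SE 0.14, 2.01-fold) for Muc5ac, 0.69 (SE 0.18) for Muc4, 0.40 (SE 0.13) for Muc5b, 0.31 (SE 0.12) for Muc1 and 0.21 (SE 0.11) for Muc20. All were positive, and the adjusted limma p was between 0.514 and 0.562. There too 0 genes (0%) were called, with 2514 at an unadjusted p under 0.05. The variance trend called 1 gene (0.0038%), which was not a mucin, and gave Muc5ac an adjusted limma p of 0.219 and Muc13 0.278. Muc5ac ranked 734th and Muc13 548th highest of 26344 genes.

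**Figure D3:**
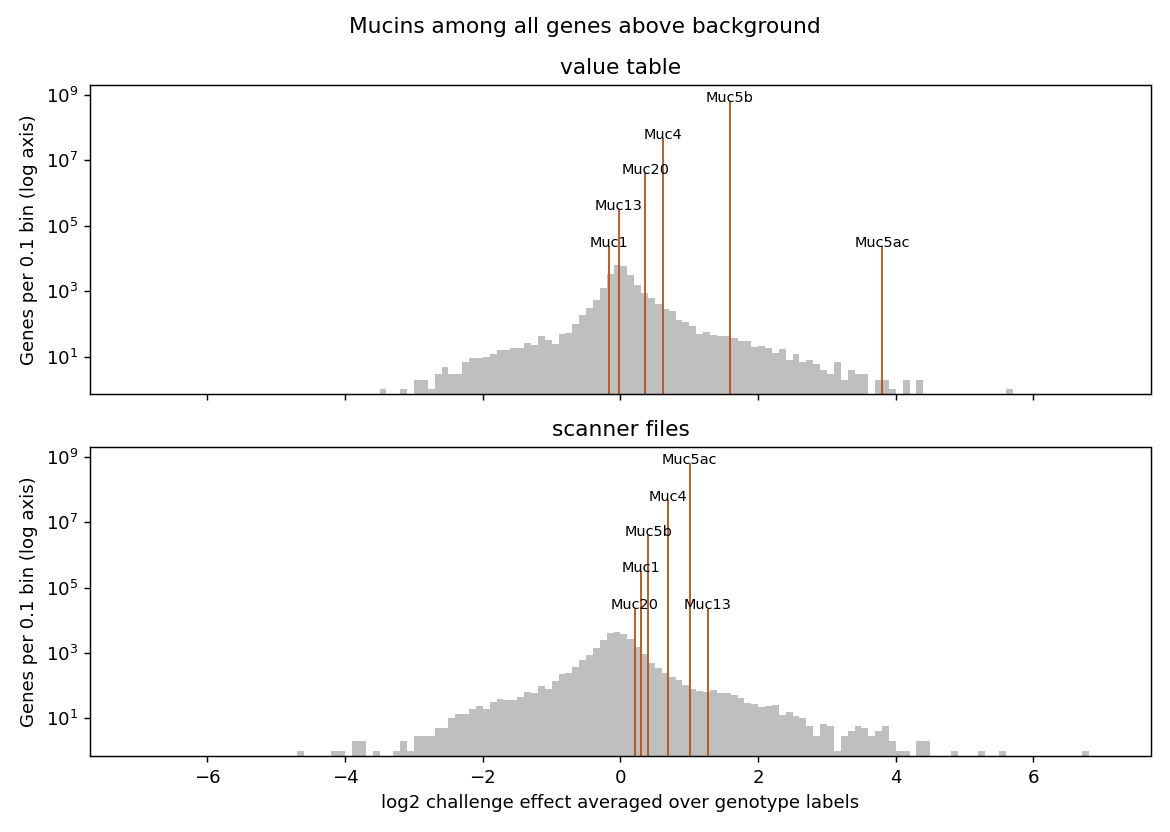
Number of genes (log axis) by log2 challenge effect averaged over the genotype labels, in bins of 0.1, for all genes above background on at least 1 array in the value table (top) and the scanner files (bottom). Vertical lines mark the mucins, with heights set only to separate the names; Muc2, detected on 1 array of each source, is left out. Muc5ac stands in the right tail of the table at 3.81 and nearer the bulk of the scanner genes at 1.00.

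Between KO-labelled and WT-labelled arrays of the same treatment, Muc13 in the challenged scanner arrays was the one member that differed 2-fold. In the controls 0 of 7 members above background reached 2-fold in the table, against 5.13% of all genes, and 0 of 6 in the scanner files, against 5.97%. In the controls Muc5ac differed by 0.07 in the table and -0.21 ± 0.20 in the scanner files, Muc5b by 0.29 and 0.21 ± 0.20, and Muc4 by 0.12 and -0.29 ± 0.20. After challenge 0 of 6 members reached 2-fold in the table, against 5.79%, and 1 of 7, Muc13, in the scanner files, against 8.14%. There Muc5ac was 0.60 higher (1.51-fold) in the KO-labelled array of the table and 0.08 ± 0.20 higher in that of the scanner files. Muc5b was 0.14 and 0.41 ± 0.20 higher, and Muc4 0.58 and 0.19 ± 0.20 higher. Averaged over treatments, no gene (0%) passed in the additive limma fit in either source, with 3590 (table) and 2824 (scanner files) at an unadjusted p under 0.05. With the variance trend 1017 table genes (3.91%) and 0 scanner genes (0%) passed, and with genes above background on all 4 arrays alone 271 table genes passed the additive fit, none of them a mucin in either case. In the additive fit the adjusted limma p of the members ran from 0.315 (Muc20) to 0.976 (Muc2) in the table and from 0.458 (Muc13) to 0.961 (Muc4) in the scanner files.

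The challenge response of the KO-labelled pair minus that of the WT-labelled pair reached 2-fold for 1 of 7 members in the table, Muc2 (1.68), against 6.02% of all genes, and for 0 of 7 in the scanner files, against 9.71%. Muc2 was above background on 1 of the 4 table arrays, so its value is a difference of signals at background. For Muc5ac the difference of responses was 0.53 in the table and 0.29 ± 0.29 in the scanner files. For Muc5b it was -0.15 and 0.20 ± 0.29, and for Muc4 it was 0.46 and 0.48 ± 0.29. That of Muc13 was 0.28 and 0.91 ± 0.29. No test of these differences can be made with 1 array per group, and a difference between genotypes and one between pools of mice cannot be told apart.

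The genes that mucins depend on were described by lists, which were chosen with earlier results of these data known. Their counts are descriptions and not a test. Of 10 proteins secreted with mucins, 8 were at least 2-fold higher after challenge in each label pair of the table and none lower, against 3.45% (WT-labelled) and 4.62% (KO-labelled) of all genes, with a median averaged difference of 2.35 against 0.01 for all genes. For the scanner files the numbers were 3 for the WT label and 4 for the KO label, and 1 was lower in the latter (Tff3), against 4.41% and 8.72% of all genes, with a median of 0.84 against -0.05. The trend fit called 7 of the 10 in the table and none in the scanner files. Fcgbp, a mucus protein that binds to mucins, had table levels of 0.245 and 0.426 in the WT- and KO-labelled controls and 1.65 and 3.08 in the challenged arrays, which lay above them by 2.75 and 2.85. Its scanner differences were 0.55 and 0.93.

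Of 23 measured enzymes that build the O-linked sugars of mucins, 0 were 2-fold higher for the WT label and 2 for the KO label in each source, and none was lower. In the KO-labelled scanner pair this share was about that of all genes (8.72%), and in the table the share of all genes was 4.62%. The medians were -0.03 in the table and 0.23 in the scanner files, against 0.01 and -0.05 for all genes. In the table the genes were Gcnt3, which branches mucin sugars (2.14), and the fucosyltransferase Fut2 (2.31-fold, with its control at background). Gcnt3 was lowest on the KO-labelled control (0.00399, threshold 0.00316) and similar on both challenged arrays (0.0181 and 0.0176). Its WT-labelled difference was 0.30. In the scanner files the genes were the sialyltransferases St3gal1 and St3gal4 (1.66 and 1.58). Of 10 genes for folding in the endoplasmic reticulum, Agr2, a disulfide isomerase needed to make gel-forming mucins, was called in both table pairs, with levels of 0.295, 0.580, 1.12 and 2.98 and differences of 1.92 and 2.36, and passed the trend fit. It differed by 0.28 and 0.16 in the scanner files, where Xbp1, a transcription factor of the secretory pathway, was called instead in the KO-labelled pair (1.13). The folding medians were 0.05 and 0.42.

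Of 14 genes for the release of mucin granules, Syt2, a calcium sensor, was the one called in the table. Its signal was 4.62- and 4.49-fold higher in the WT- and KO-labelled pairs, with both controls at background. The challenged levels of Syt2, 0.00593 and 0.00440, lay near their background thresholds of 0.00317 and 0.00380. Of all genes 3.45% and 4.62% were called in these table pairs, and 4.41% and 8.72% in the scanner pairs. On the scanner arrays Syt2 was called in the KO-labelled pair, where the receptor P2ry2 was also called (1.70). The control of Syt2 was at background there, and the Syt2 fold against the lowest level flagged above background was 6.52. The other vesicle genes of the list stayed under 2-fold in both sources. Of 15 regulators, 2 were called for the WT label and 4 for the KO label in the table, and 1 and 6 in the scanner files, to be read against the same shares. In the table Il13, the cytokine that drives goblet cells, differed by 1.59 and 2.16, Foxa3, a transcription factor of goblet cells, by 1.43 and 1.73, and Spdef, another that goblet cells need, by 0.94 and 1.40. After challenge the scanner signal of Il13 was 15.3- and 88.9-fold above the lowest level flagged above background on the control arrays. Both of its controls were at background, so these folds are not bounds. In the scanner files Spdef differed by 0.42 and 1.05, and Foxa3 by 0.40 and 0.63. Areg and Ereg, ligands of the epidermal growth factor receptor, were called in the KO-labelled scanner pair, at 2.69 on the log2 scale and 7.63-fold. Its control had the lowest level of the 4 arrays for each, and was at background for Ereg. Of 12 other mucin-type genes listed, 5 were found on the array by name and 4 were above background, of which Mucl1, a small mucin-like protein, was called in both table pairs (2.35 and 2.73), passed the trend fit there, and was not called in the scanner files (-0.20 and 0.05).

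**Figure D4:**
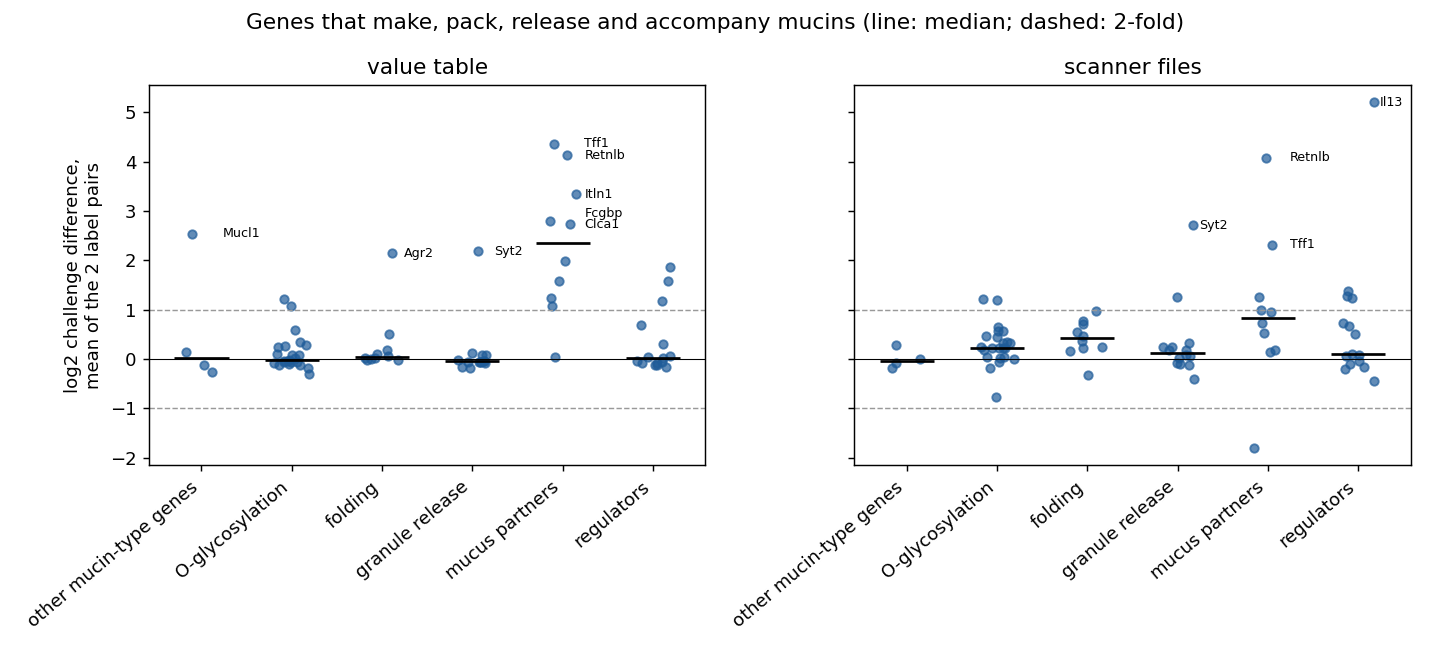
Challenged minus control as a log2 difference, averaged over the 2 label pairs, for each gene above background in 6 lists around the mucins, in the value table (left) and the scanner files (right). Each point is a gene, with the floor (the lowest level flagged above background on an array) in place of a background signal below it. Black lines are medians, dashed lines mark 2-fold, and genes at 2 or more are named. The mucus partners have a median of 2.35 in the table and 0.84 in the scanner files, while the sugar, folding and release lists centre between -0.05 and 0.42.

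The genes most like Muc5ac, Muc5b and Muc4 were found by the root mean square difference of log2 levels, centred within each source, over the 4 scanner arrays and 4 table columns, among 22504 genes above background on all 8. The nearest to Muc5ac were Scin, an actin-severing protein (0.37), Itln1, a secreted lectin (0.41), Fcgbp (0.43) and the protease Capn9 (0.45), with 1 probe without a gene name between the last of these. Capn9 followed Muc5ac in the table (3.90 and 3.99 after challenge) and less so in the scanner files (0.63 and -0.23). The nearest to Muc5b were Foxa3 (0.12), the secreted phospholipase A2 Pla2g10 (0.19), Atp10b, a lipid flippase (0.20), and Cldn22, a tight junction protein (0.22), with an unnamed transcript before the last. Those near Muc4 included the sugar transporter Slc5a9 (0.12), the oxytocin receptor Oxtr (0.12), Prap1 (0.13) and Fkbp11, a folding enzyme (0.13). All of these values are descriptions over 8 columns from the same 4 groups.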

How the data were processed

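RNA pooled from 4 lung samples per group was measured on 4 one-colour arrays, 1 per group, from 1 slide and 1 scan; 200 ng was labelled. Groups were taken from the sample titles. Scanner files give the intensity of each spot, and per the file headers Agilent Feature Extraction (11.5.1.1, also in the submitters' processing notes) had removed spatial trends, with its background correction setting at 0. The deposited value table has 1 linear signal for each spot and group. Its making, including any background step by the authors, is not given in the sources here. Its median negative control was 0.000581 to 0.000761.

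Each array had 44397 spots, 43020 of them not controls. Spots of a probe were averaged, 19 probes marked uneven were left out of the scanner files, and no spot was saturated. Intensities were divided by the array's 75th percentile and taken to log2; table signals were taken to log2 as deposited. Above background meant Agilent's flag, or, in the table, over 5 times the median negative control, a rule that gave Agilent's call for 99.2% of scanner spots. Where an array was at background, a fold sets the brighter array against the higher of the dim probe and the floor. The floor is the lowest level of any probe with a spot above background on that array. In the table it was 0.000630 to 0.000878, under the thresholds of 0.00291 to 0.00380, so such a fold is not a bound. Probes were named by RefSeq accession (28330) or symbol (2378), and 8721 kept the file's name. A gene is its probe with the highest mean.

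Challenge, label and difference-of-response comparisons were counted at 2-fold, with no test. Limma 3.58.1 (R 4.3.3) fitted label and treatment as additive terms to all genes above background on at least 1 array, with Benjamini-Hochberg adjustment and a threshold of 0.05; its 1 residual degree of freedom mixes interaction with differences between pools. This step was tested on simulated data with known changes. Precision is limited by the number of arrays. Alternatives were quantile normalization, normexp (offset 50) with quantile normalization, a rule adding 3 spot errors, 2 other filters, the mean of probes, other probes and a variance trend. Named are all members, Pla2g3, the 5 genes nearest to each of 3 mucins where they have a gene name (1 of them is not reported here), and genes from the lists with the largest differences (up to 4 per list and source); Spdef, Foxa3, Fcgbp and Tff3 were also named for both sources, and Dcpp1, Dcpp3, Cd8a, Rtkn2 and Cldn18 beside the markers, after their values were seen. The members and lists were chosen with earlier results of these data known. No column of sample values was left unmapped (0). Python 3.11.15, pandas 2.3.3, numpy 2.4.6 and matplotlib 3.10.9 were used.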

Additional observations from a re-analysis of the deposited data

Results flagged for a closer look

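In 6 member values the difference had opposite signs in the groups compared, which was not tested since each group has 1 array. In the scanner files the KO-labelled minus WT-labelled difference of Muc5ac was -0.21 in the controls and 0.08 after challenge, a change of 0.29, that of Muc1 was 0.02 and -0.11, a change of -0.12, and that of Muc4 was -0.29 and 0.19, a change of 0.48. The spot error of such a change was 0.29. In the table the challenge difference of Muc1 was 0.01 for the WT label and -0.36 for the KO label, a change of -0.37. For Muc13 the table gave challenge differences of -0.17 and 0.12 and label differences of -0.23 and 0.05, each a change of 0.28.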

How the results depend on the processing

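Member counts at 2-fold kept their value under every alternative run but 2, both through Muc2 at background: a filter on all arrays took the table's difference of responses from 1 member to 0, and no filter took its KO-labelled pair from 2 to 3. Of 185 member differences under alternatives, 169 stayed within the spot error or 0.20, 16 moved further, most of them Muc20 when its second probe was used alone or averaged in, and 0 reversed a called difference. In limma, 0 challenge calls became 111 in the table (Muc5ac and Muc5b included) and 1 in the scanner files with a variance trend, and 1 in the scanner files with normexp; 0 label calls in the table became 1017 with the trend and 271 with the filter on all 4 arrays, none a mucin. Over all genes, counts at 2-fold (WT-labelled pair, KO-labelled pair, label in controls, label after challenge, difference of responses) were 1140, 2225, 1531, 2098 and 2557 in the scanner files, against 192, 719, 468, 490 and 643 with normexp and 561, 1336, 961, 1162 and 1289 with the filter on all arrays; 3 spot errors gave 739 for the first and 1416 for the last. In the table they were 885, 1159, 1308, 1472 and 1567, against 409, 603, 770, 794 and 551 with that filter, and 1531, 1913, 2028 and 2585 without one (label after challenge left out). Apart from the filters, which change the genes tested, the cause was not tested. Leaving out an array was not possible with 1 per group, and the table had no other background correction to try. No paired analysis was possible because each group has 1 array. Signals near background limit Muc2 and Muc15.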
